A study of Mus musculus with 12 samples.

Results

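Serpins are a family of proteins with a shared fold, and 40 serpin genes were measured here in gastrocnemius, the main calf muscle, of mice. They were chosen by gene symbol, as the genes whose symbol begins with Serpin and a clade letter from a to i, out of 18194 genes with a probe set of their own. The 40 genes were read by 56 probe sets, and where a gene had several, the brightest on average across the 12 arrays stood for it. That average is the only measured value in this rule, and the other probe sets served as a check. The family itself was chosen with earlier results of these data known, among them the rise of Serpinb1a. A further 3 probe sets that match several serpin genes at once were not assigned to a gene.

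The mini-muscle group held 6 male mice of line 3, which carry the mini-muscle phenotype, in which hindlimb muscles are inherited at a much smaller size. Their counterparts were 6 male mice of line 8, whose muscles are regular. All 12 mice belonged to generation 37 of lines bred for high voluntary wheel running, at a mean age of 84 days (79 to 86 days), and no array of an unselected control line was analysed here. In mini-muscle mice the left and right muscles of each animal were pooled, and in regular-muscle mice the muscle of 1 limb was used. Phenotype, line and limb pooling therefore cannot be told apart, and each group stands for 1 line.

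Most serpins act as suicide inhibitors of proteases. An exposed loop is offered as bait, the protease cuts it, and the serpin then snaps shut with the enzyme bound to it. Clade A serpins are mostly secreted plasma proteins made by the liver, whereas clade B serpins stay inside cells and guard them against proteases such as those of granules and lysosomes. Some members have lost the inhibitory function and work as hormone carriers, growth factors or, in the case of Serpinh1, as a chaperone of collagen.

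Array values are intensities made with MAS5, a method that summarises the probes of a probe set on each array. Their trimmed mean was the same, 800.0, on every array, and array medians were 211.9 to 275.2. They are given on the log2 scale below, and a positive difference means a higher value in mini-muscle (n = 6 arrays in each group). All 10 skeletal muscle fibre markers were measured above the dim limit, which is the median of the gene means (log2 8.56). Of these markers 5 were called lower and 1 higher in mini-muscle, and Myh4, the fast myosin of type IIb fibres, fell by 1.33 (limma adjusted p = 8.3e-07). Their summed intensity was 1163000 to 1363000 in mini-muscle and 1391000 to 1708000 in regular muscle, with no overlap, and their part in the results for serpins was not tested. In limma with Benjamini-Hochberg adjustment, 2426 of 9097 genes above that limit were called at an adjusted p under 0.05, or 26.7%, of which 14.9% of the genes were higher and 11.8% lower in mini-muscle.

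Few serpins were measured well above the dim range in this muscle, and the ones that were moved in both directions. Serpinb1a and Serpinb9, intracellular inhibitors of clade B, were higher in mini-muscle, and the secreted proteins Serpinf1 and Serping1 were lower. Of the 8 serpin genes above the dim limit, 2 rose, 2 fell and 4 did not pass the test, so that 4 of 8 were called, against 26.7% of all genes. The median difference of the 8 was -0.05, against 0.03 over all genes above the limit. Arrays of the groups were fully apart for 3 of the 8 genes (37.5%), against 13.0% of all genes above the limit. Both shares count Serpinb1a, whose regular-muscle mean of 8.01 lay below the limit. It is among the 8 through its mini-muscle arrays, so neither share is a test of the family. Serpina1c lay just above the limit with a mean of 8.56 and Serpinb11 just below it with 8.27. In all 32 serpins were below it, and among these Serpina3n was called higher when all genes were tested.

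**Figure D1:**
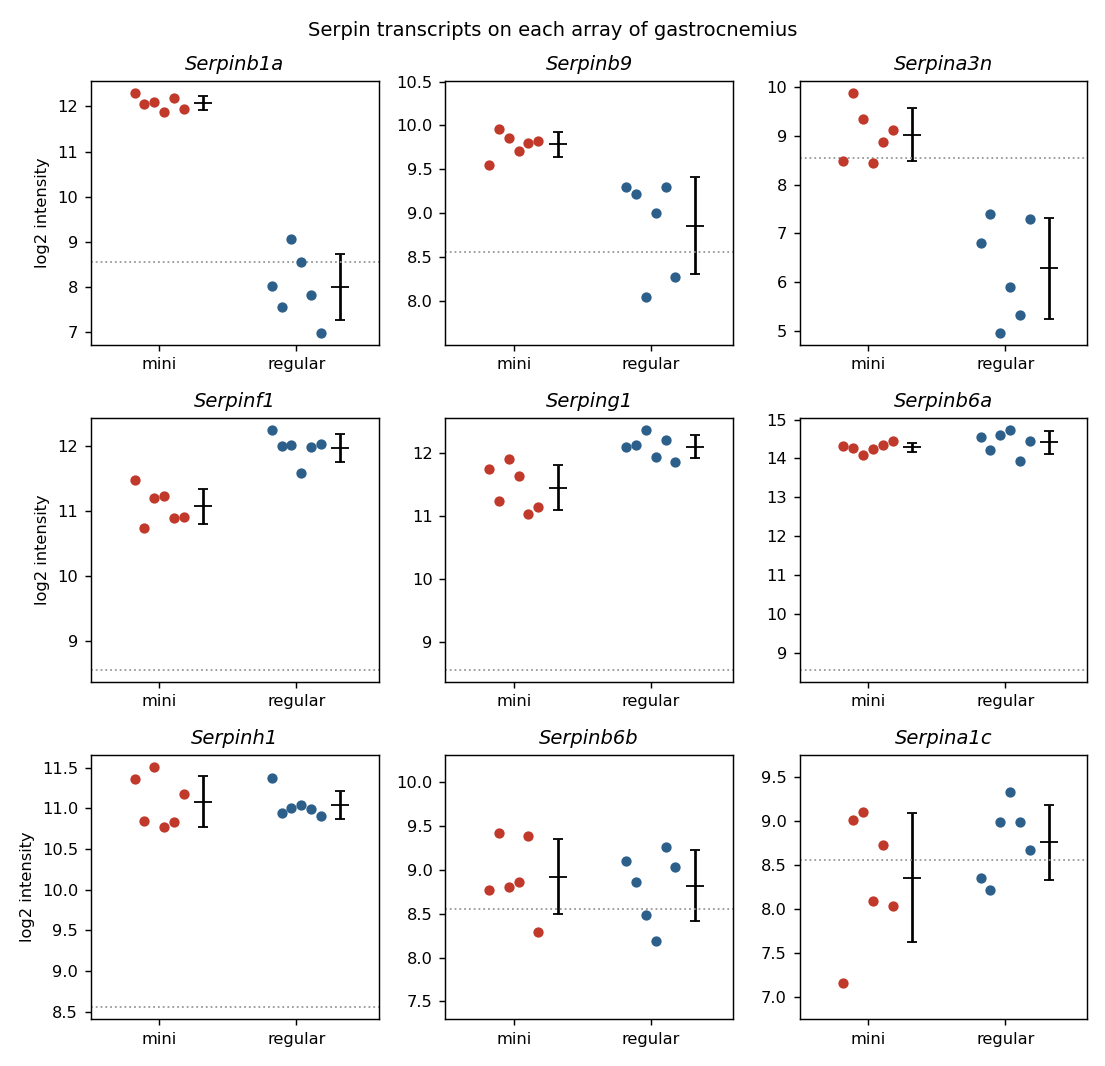
Log2 intensity of 9 serpin genes on each array (y axis) in mini-muscle and regular-muscle (x axis). Points are arrays, the mark beside them is the mean with its SD (n = 6), and the dotted line is the dim limit of 8.56. Serpinb1a, Serpinb9, Serpina3n and Serpinf1 show no overlap between the groups. The y range differs between panels.

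Serpinb1a, a cytoplasmic inhibitor of the neutrophil proteases elastase, proteinase 3 and cathepsin G, showed the largest difference of the family. On the 6 mini-muscle arrays Serpinb1a read 12.30, 12.05, 12.11, 11.88, 12.19 and 11.95 (median 12.08), against 8.03, 7.56, 9.07, 8.57, 7.83 and 6.99 (median 7.93) on the 6 regular-muscle arrays. In linear units this is 3782 to 5037 in mini-muscle and 127 to 538 in regular muscle. Every mini-muscle array lay far above every regular-muscle array, and the mini-muscle arrays lay close together. The group means were 12.08 ± 0.15 in mini-muscle and 8.01 ± 0.74 in regular muscle (SD). The difference was 4.07 (SE 0.25, 95% interval 3.55 to 4.59), or 16.8-fold, with limma adjusted p = 3.7e-09.

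The regular-muscle mean of Serpinb1a was itself below the dim limit, so the gene passed that limit through the mini-muscle arrays and the size of its fold is uncertain. With an offset of 64 added to every intensity before log2 the difference was 3.75. Its second probe set, of a class that can match related transcripts, gave 9.04 ± 0.38 in mini-muscle and 6.96 ± 1.47 in regular muscle, a difference of 2.09 (adjusted p = 0.013 over all single-gene probe sets). Both probe sets were thus higher in mini-muscle, by sizes that were far apart.

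Markers of neutrophils, cells rich in the proteases that this inhibitor binds, were mostly dim on these arrays. Of 12 measured neutrophil markers, 11 were below the dim limit, and the other, Ngp, differed by 0.04 (limma adjusted p = 0.90). The 11 dim markers differed in both directions, from -0.95 for S100a8 to 1.82 for Lcn2. The summed intensity of the list was 1844 to 3286 in mini-muscle and 1912 to 2823 in regular muscle, and the ranges overlapped. Its target proteases were in the dim range too. Elane, neutrophil elastase, was at 7.33 ± 0.74 in mini-muscle and 7.85 ± 0.76 in regular muscle, and Ctsg, cathepsin G, at 5.57 ± 1.81 in mini-muscle and 4.91 ± 1.48 in regular muscle.

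Serpinb9, the intracellular inhibitor of granzyme B, rose by a smaller amount. On the 6 mini-muscle arrays Serpinb9 read 9.555, 9.962, 9.857, 9.712, 9.796 and 9.821 (median 9.81), against 9.296, 9.220, 8.049, 9.001, 9.295 and 8.280 (median 9.11) on the 6 regular-muscle arrays. The groups did not overlap, although the gap between them was narrow and 2 regular-muscle arrays lay apart at the low end. The difference was 0.93 (SE 0.21, 95% interval 0.48 to 1.38), or 1.90-fold, with limma adjusted p = 0.0032. A second, dim probe set gave 1.599 (adjusted p = 0.085 over all single-gene probe sets).

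Granzyme B itself and markers of the cytotoxic lymphocytes that carry it were mostly dim as well. Gzmb was at 5.73 ± 1.04 in mini-muscle and 5.79 ± 0.94 in regular muscle. Of 10 measured markers of T and NK cells, 9 were below the dim limit, and the other, Cd8a, differed by -0.45 (limma adjusted p = 0.26). Their summed intensity was 827.7 to 2206 in mini-muscle and 1465 to 1983 in regular muscle.

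Serpina3n, a secreted acute-phase protein that also inhibits granzyme B in mice, had a mean of 7.65 over all arrays and was therefore below the dim limit. On the 6 mini-muscle arrays Serpina3n read 8.481, 9.886, 9.351, 8.445, 8.886 and 9.122 (median 9.004), against 6.794, 7.390, 4.959, 5.905, 5.327 and 7.296 (median 6.35) on the 6 regular-muscle arrays. The groups did not overlap, and regular-muscle values were spread over a wide range. In a fit over all 18194 genes without the dim limit the difference was 2.75 (SE 0.46, 95% interval 1.78 to 3.72), or 6.73-fold, with limma adjusted p = 3.6e-04. With the offset of 64 it was 1.98 (adjusted p = 1.5e-04), so the size of the fold depends on how low intensities are treated. It is read by 1 probe set.

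In that fit over all genes, 3 of the 40 serpins were called higher and 2 lower, which is 12.5% of the family against 12.1% of all genes. Of all genes 6.76% were higher and 5.33% lower. Mini-muscle and regular-muscle arrays were fully apart for 4 of the 40 genes, against 6.91% of all genes. The family as a whole was called about as often as other genes, and the results concern single members.

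Of the 3 secreted serpins above the limit, Serpinf1 and Serping1 fell and Serpina1c did not pass the test. Serpinf1 encodes pigment epithelium-derived factor, a secreted protein that restrains blood vessel growth and has no known protease target. On the 6 mini-muscle arrays Serpinf1 read 11.470, 10.732, 11.193, 11.225, 10.890 and 10.911 (median 11.05), against 12.243, 11.999, 12.009, 11.583, 11.982 and 12.025 (median 12.004) on the 6 regular-muscle arrays. No arrays of the groups overlapped. Serpinf1 fell by 0.90 (SE 0.13, 95% interval -1.17 to -0.64), and was 1.87-fold lower with limma adjusted p = 4.0e-05. A second, dim probe set differed by -0.92 (adjusted p = 0.21 over all single-gene probe sets). Of the partners reported for this protein, Pnpla2, a triglyceride lipase, rose by 0.49 (adjusted p = 0.0045). That call was lost with the mean of its probe sets (0.30, adjusted p = 0.70). The partners Plxdc1 and Plxdc2 were not called, with differences of 0.40 (adjusted p = 0.19) and -0.18 (adjusted p = 0.52).

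Serping1 encodes the plasma inhibitor of the complement proteases C1r and C1s and of plasma kallikrein. On the 6 mini-muscle arrays Serping1 read 11.74, 11.23, 11.89, 11.64, 11.02 and 11.14 (median 11.43), against 12.09, 12.13, 12.36, 11.94, 12.20 and 11.85 (median 12.11) on the 6 regular-muscle arrays. The groups overlapped slightly, with the highest mini-muscle array above the lowest regular-muscle array. The gene fell by 0.65 (SE 0.14, 95% interval -0.95 to -0.36), and was 1.57-fold lower with limma adjusted p = 0.0020. Of its target proteases, C1s1 fell by 0.64 (SE 0.18, adjusted p = 0.013), at 9.56 ± 0.23 in mini-muscle and 10.19 ± 0.44 in regular muscle. C1ra, the partner of C1s1 in the complement complex, differed by -0.56 (adjusted p = 0.13). Masp1, another complement protease of the target list, differed by -0.11 (adjusted p = 0.68). Masp2 was below the dim limit and differed by 0.008 (adjusted p = 0.99 in the fit over all genes). Klkb1, plasma kallikrein, was below the dim limit and differed by 1.39 (adjusted p = 0.16 in the fit over all genes).

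Markers of fibroblasts, cells known to make Serpinf1 and complement proteins, of tendon cells and of macrophages were lower in mini-muscle too. Of 11 measured fibroblast markers, all above the limit and 3 of them collagen chains, 6 were called lower and 0 higher by limma, and their summed intensity was 28950 to 49420 in mini-muscle and 50760 to 77420 in regular muscle, with no overlap. Of 6 macrophage markers above the limit (of 12 measured), 4 were called lower and 0 higher, with sums of 5834 to 7813 in mini-muscle and 7308 to 11650 in regular muscle. Of 4 tendon cell markers above the limit (of 6 measured), 4 were called lower, with a median difference of -1.09 and sums of 6324 to 12190 in mini-muscle and 16870 to 19870 in regular muscle, again with no overlap. The part of these markers in the results for Serpinf1 and Serping1 was not tested. In whole muscle, fewer cells of a type and less RNA per cell cannot be told apart.

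Promoters are printed below for the called serpins that the RefSeq promoter table (GRCm38.p6) holds, Serpinb9, Serpina3n and Serpinf1, so that the sequence upstream of members that rose and of one that fell can be set side by side. Promoter entries were found for 34 of the 40 genes. Each runs 5′ to 3′ on the strand of the gene, from 250 bases before the start site to 50 bases after it. Capitals mark matches, on either strand, to 4 motifs: the STAT motif TTCNNNGAA, the AP-1 motif TGANTCA, the glucocorticoid receptor half-site TGTTCT and the interferon-response motif (GAAA, any 2 bases, GAAA). The sequences are Serpinb9 at chr13:33004291-33004590 (plus strand), Serpina3n at chr12:104406458-104406757 (plus strand) and Serpinf1 at chr11:75422574-75422873 (minus strand).
Serpinb9: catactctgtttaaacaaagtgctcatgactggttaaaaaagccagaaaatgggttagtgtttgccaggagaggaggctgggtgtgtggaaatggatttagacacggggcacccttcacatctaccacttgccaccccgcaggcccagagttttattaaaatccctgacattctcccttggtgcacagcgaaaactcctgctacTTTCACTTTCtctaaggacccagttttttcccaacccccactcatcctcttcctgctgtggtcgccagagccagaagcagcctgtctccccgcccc
Serpina3n: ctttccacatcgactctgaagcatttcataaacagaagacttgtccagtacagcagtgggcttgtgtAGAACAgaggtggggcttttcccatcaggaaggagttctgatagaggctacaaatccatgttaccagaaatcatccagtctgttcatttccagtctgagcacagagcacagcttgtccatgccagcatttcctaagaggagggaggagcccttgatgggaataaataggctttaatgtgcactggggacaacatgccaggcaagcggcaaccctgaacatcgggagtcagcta
Serpinf1: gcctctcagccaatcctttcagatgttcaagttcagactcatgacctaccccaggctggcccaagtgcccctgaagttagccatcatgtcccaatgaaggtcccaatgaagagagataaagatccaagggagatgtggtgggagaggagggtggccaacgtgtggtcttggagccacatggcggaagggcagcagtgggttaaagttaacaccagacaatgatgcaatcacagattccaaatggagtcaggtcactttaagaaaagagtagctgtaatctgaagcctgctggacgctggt
Serpinb9 held 1 interferon-response match, TTTCACTTTC, which read on the other strand is the motif, a motif present in 3.4% of the 32851 promoters of the table. Serpina3n held 1 glucocorticoid half-site match, AGAACA, present in 19.0% of them. STAT matches were present in 8.3% and AP-1 matches in 7.8% of the promoters, and these letters are not in the windows shown. A match is a description of the letters only.

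The 4 other serpins above the dim limit did not pass the test. Serpinb6a, an intracellular clade B inhibitor, was at 14.28 ± 0.12 in mini-muscle and 14.41 ± 0.29 in regular muscle, a difference of -0.13 (95% interval -0.36 to 0.10, adjusted p = 0.43). Its paralogue Serpinb6b differed by 0.10 (95% interval -0.40 to 0.60, adjusted p = 0.80). Serpina1c, of the antitrypsin group, was at 8.36 ± 0.74 in mini-muscle and 8.76 ± 0.43 in regular muscle, a difference of -0.40 (95% interval -1.06 to 0.26, adjusted p = 0.39). These intervals leave room for differences of either sign, widely so for Serpina1c and more narrowly for Serpinb6a.

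Serpinh1, the endoplasmic reticulum chaperone that binds newly made procollagen, was at 11.08 ± 0.31 in mini-muscle and 11.04 ± 0.17 in regular muscle. Its difference was 0.04 (95% interval -0.24 to 0.32, adjusted p = 0.87), and its second probe set gave 0.16. Some chains of the fibrillar collagens that it binds were lower and others were not called. Col1a1, a chain of type I collagen, fell by 1.42 (SE 0.18, adjusted p = 1.4e-05), Col3a1, the chain of type III collagen, by 0.71 (adjusted p = 4.6e-04) and Col1a2, the other chain of type I collagen, by 1.04 (adjusted p = 1.5e-04), a call lost with the mean of its probe sets (-0.49, adjusted p = 0.43). Of the type V chains, Col5a2 fell by 0.53 (adjusted p = 0.039), Col5a1 differed by -0.20 (adjusted p = 0.32) and Col5a3 by 0.08 (adjusted p = 0.77), all named after their values were seen. In the list of collagen chains and collagen-processing enzymes, 7 of 26 genes above the limit fell and 3 rose, with a median difference of 0.01. Of all genes above the limit 11.8% were lower and 14.9% higher. The 3 that rose were processing enzymes, the hydroxylase subunits P4ha2 (0.41, adjusted p = 0.046) and P4hb (0.24, adjusted p = 0.031) and the lysyl hydroxylase Plod3 (0.64, adjusted p = 0.0040), named after their values were seen. That count was 1 with arrays centred on their medians, without the trend, or without mini-muscle replicate 1, 4 or 5 or regular-muscle replicate 5, and it ranged from 1 to 4 over the alternatives. Pcolce, an enhancer of procollagen cleavage, fell by 0.55 (adjusted p = 0.0036).

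**Figure D2:**
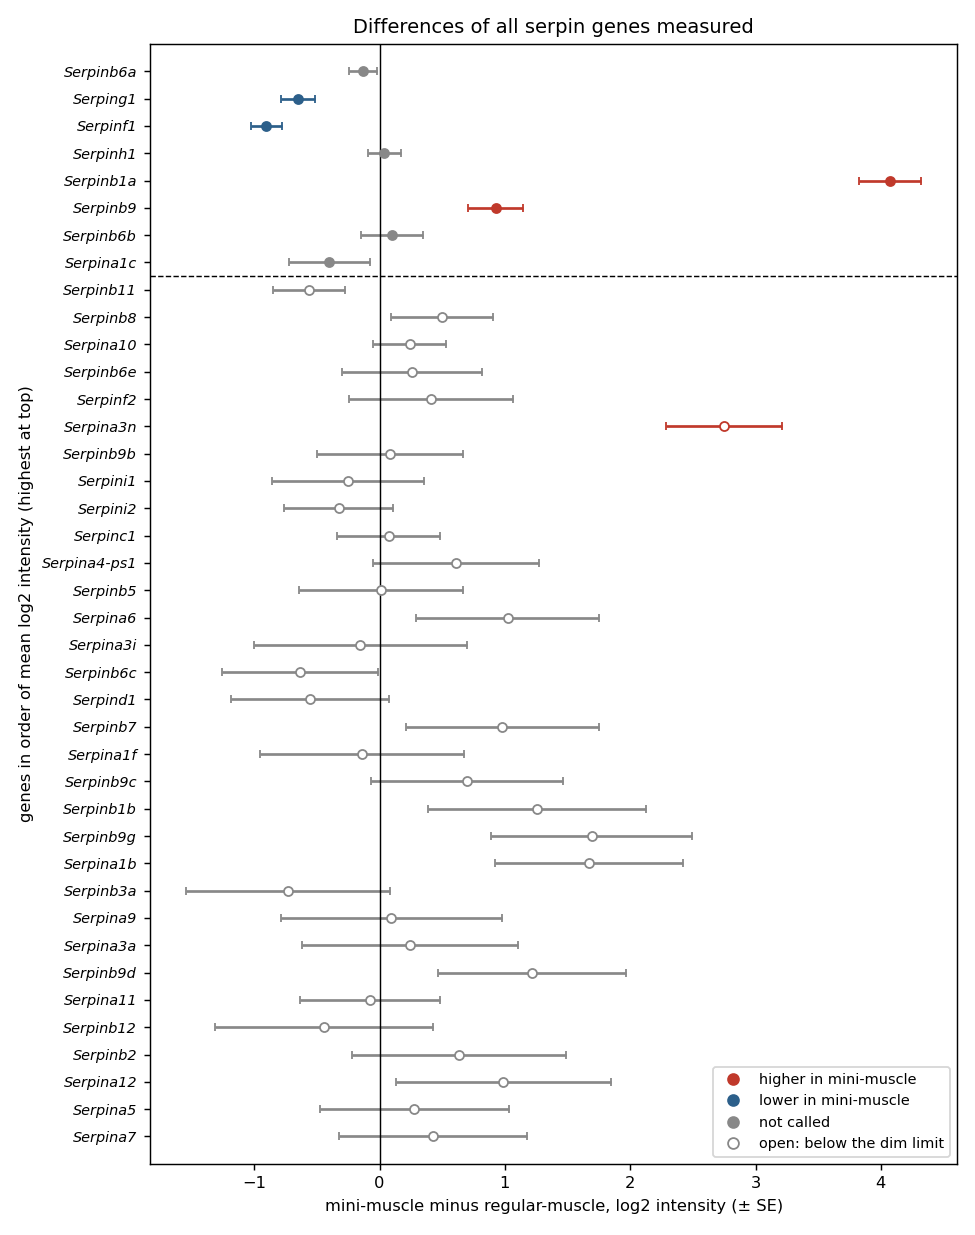
Difference in log2 intensity, mini-muscle minus regular-muscle (x axis, ± SE of the fit over all genes, n = 6 per group), for the 40 serpin genes in order of their mean intensity (y axis). Filled points are above the dim limit and open ones below it. The 5 called genes stand out, and the error bars widen towards the dim genes at the bottom.

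Of the 32 serpins below the dim limit, 31 were not called, with limma adjusted p from 0.19 to 0.995 in the fit over all genes. Their differences lay between -0.73 (Serpinb3a) and 1.69 (Serpinb9g), and 22 of all 32 were positive and 10 negative. The median difference of the 32 was 0.25. It was 0.02 over all genes, which include those above the limit, and was not computed for all dim genes alone. The SD within a group was 1.21 in mini-muscle and 1.33 in regular muscle at the median of the 32. The same SD was 0.29 in mini-muscle and 0.35 in regular muscle for the 8 serpins above the limit. Single arrays of a dim serpin thus often lay a fold of 2 or more apart. Some spread less, such as Serpina10, with an SD of 0.35 in mini-muscle and 0.33 in regular muscle. For 6 of the 32 the group means differed by a fold of 2 or more, and 1 of them, Serpina3n, was called.

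Many of the dim members encode plasma proteins of the liver. Serpinc1, antithrombin, the main inhibitor of thrombin, was at 7.47 ± 0.60 in mini-muscle and 7.40 ± 0.58 in regular muscle. Serpind1, a heparin-dependent thrombin inhibitor, was at 6.07 ± 1.14 in mini-muscle and 6.63 ± 1.01 in regular muscle. Serpinf2, the plasmin inhibitor, was at 7.89 ± 1.61 in mini-muscle and 7.48 ± 1.09 in regular muscle. None of these 3 passed the test. The hormone carriers Serpina6, which binds corticosteroids, and Serpina7, which binds thyroxine, differed by 1.02 (adjusted p = 0.47) and 0.43 (adjusted p = 0.82).

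Among the remaining clade A genes below the limit was Serpina10, an inhibitor of an activated coagulation factor. It was at 8.19 ± 0.35 in mini-muscle and 7.94 ± 0.33 in regular muscle. The others included Serpina1b and Serpina1f of the antitrypsin group, and Serpina3a and Serpina3i, relatives of Serpina3n. They also included Serpina5, the inhibitor of activated protein C, Serpina9, Serpina11, Serpina12, which encodes the adipokine vaspin, and the pseudogene Serpina4-ps1. Serpina1b had the lowest adjusted p of the uncalled dim genes (difference 1.67, adjusted p = 0.19), while its second probe set gave -1.44. The 11 measured liver and plasma protein genes, Alb, Apoa1 and Ttr among them, were all below the limit too. Their summed intensity was 1425 to 2170 in mini-muscle and 1173 to 2758 in regular muscle.

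Among the dim clade B genes, Serpinb8, an inhibitor of the convertase furin, was at 8.34 ± 0.36 in mini-muscle and 7.84 ± 1.02 in regular muscle. Its second probe set gave 2.41 (adjusted p = 0.12 over all single-gene probe sets). Serpinb11 was at 7.99 ± 0.48 in mini-muscle and 8.55 ± 0.30 in regular muscle (difference -0.56, adjusted p = 0.26). Serpinb2, an inhibitor of the plasminogen activator urokinase, was at 5.21 ± 1.75 in mini-muscle and 4.58 ± 1.502 in regular muscle. Serpinb5, known as the tumour suppressor maspin, differed by 0.01 at its brightest probe set. Serpinb3a, Serpinb7 and Serpinb12 of the same clade differed by -0.73, 0.98 and -0.44, with adjusted p from 0.53 to 0.84. Serpini1, neuroserpin, an inhibitor of tissue plasminogen activator in the nervous system, differed by -0.25 and Serpini2 by -0.33, with adjusted p of 0.87 and 0.75.

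**Figure D3:**
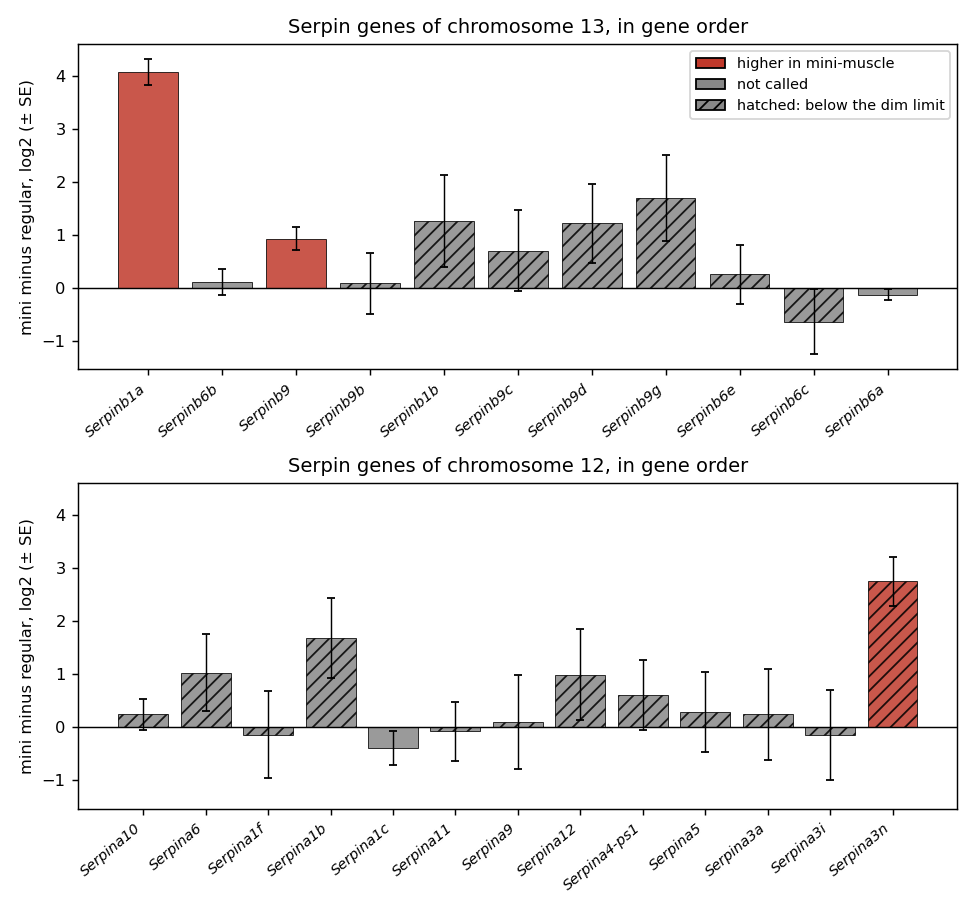
Difference in log2 intensity, mini-muscle minus regular-muscle (y axis, ± SE of the fit over all genes), of the serpin genes on chromosome 13 (top) and chromosome 12 (bottom), in the order of the RefSeq gene table (x axis). Hatched bars are below the dim limit. On each chromosome the called genes are a few among neighbours that were not called.

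Serpin genes lie in clusters of near copies, and the called members stood among neighbours that were not called. On chromosome 13, where 11 clade B members lie, Serpinb1a and Serpinb9 were called, and Serpinb6b, which lies between them among the genes measured, was not. Serpinb1b, a near relative of Serpinb1a, was at 6.40 ± 1.29 in mini-muscle and 5.14 ± 2.07 in regular muscle, a difference of 1.26 (adjusted p = 0.45). Among the relatives of Serpinb9 the differences were 0.08 for Serpinb9b, 0.70 for Serpinb9c, 1.22 for Serpinb9d and 1.69 for Serpinb9g, all below the dim limit and with adjusted p from 0.22 to 0.96. The relatives of Serpinb6a at the end of the cluster, Serpinb6c and Serpinb6e, differed by -0.64 and 0.26.

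On chromosome 12, where 13 clade A members lie, Serpina3n was called and the 12 others were not. Its relatives Serpina3i and Serpina3a differed by -0.16 and 0.24. Chromosome 1 held 8 members, all dim and none called. Copies of one cluster can share probe matches, so a value named for a gene of a cluster can hold signal of its relatives.

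**Figure D4:**
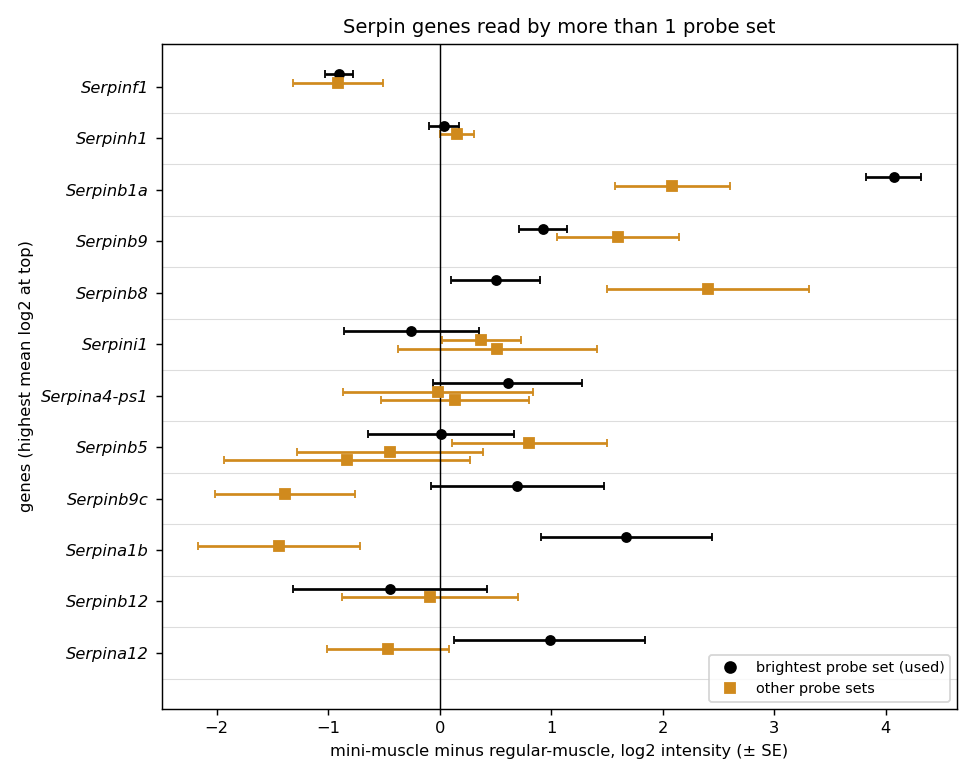
Difference in log2 intensity, mini-muscle minus regular-muscle (x axis, ± SE), at each probe set of the 12 serpin genes read by more than 1 probe set (y axis). Circles are the brightest probe set, which was used, and squares the others. The probe sets of Serpinb1a, Serpinb9 and Serpinf1 lie on the same side of 0, and those of Serpinb9c, Serpina1b, Serpina12, Serpinb5, Serpini1 and Serpina4-ps1 fall on either side.

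Of the 40 genes, 12 were read by more than 1 probe set. For the called genes among them, Serpinb1a, Serpinb9 and Serpinf1, every probe set gave the same direction. For the dim genes Serpinb9c, Serpina1b and Serpina12, the brightest and the other probe set pointed in opposite directions, at 0.70 and -1.39, at 1.67 and -1.44, and at 0.99 and -0.46. Serpinb5, Serpini1 and Serpina4-ps1, also dim, had probe sets of either sign as well. None of the 6 values given passed over all single-gene probe sets, with adjusted p from 0.23 to 0.74.

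Proteases that serpins act on were mostly dim. Of 40 measured genes of that list 14 were above the limit, and 1 rose, 1 fell and 12 did not pass, with a median difference of 0.05. Among all genes above the limit 26.7% were called. The higher count was 2 with quantile normalization or without regular-muscle replicate 3 and 0 with probe sets averaged, and the lower count was 2 with probe sets averaged or without mini-muscle replicate 3. The one that rose was Plat, tissue plasminogen activator, at 9.99 ± 0.33 in mini-muscle and 9.12 ± 0.27 in regular muscle (difference 0.87, SE 0.17, adjusted p = 9.2e-04). The call was lost with the mean of its probe sets (0.43, adjusted p = 0.31). Plau, urokinase, was below the limit at 7.06 ± 0.93 in mini-muscle and 7.38 ± 0.47 in regular muscle.

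Of the receptors and cofactors that work with serpins and their targets, 3 of 18 genes above the limit were higher, 2 lower and 13 not called (median difference 0.01), a share near the 26.7% of all genes. The count of 2 lower was 1 with arrays centred, with probe sets averaged, without the trend, or without mini-muscle replicate 1 or regular-muscle replicate 1, 2 or 6. Thbd, thrombomodulin, which turns thrombin towards the activation of protein C, was at 11.23 ± 0.32 in mini-muscle and 10.03 ± 0.28 in regular muscle (difference 1.20, SE 0.16, adjusted p = 1.5e-05). Procr, the endothelial protein C receptor, was at 8.92 ± 0.43 in mini-muscle and 10.03 ± 0.38 in regular muscle (difference -1.11, SE 0.21, adjusted p = 6.4e-04). Transcripts of Thbd and Procr thus moved in opposite directions in whole muscle. Of 9 endothelial cell markers above the limit (of 10 measured), 2 were called higher and 0 lower. Their summed intensity was 40470 to 55330 in mini-muscle and 33600 to 49000 in regular muscle, and the ranges overlapped. Which cells hold Thbd and Procr was not measured, and the part of these markers in both results was not tested. Gpc1, a heparan sulfate proteoglycan, rose by 0.55 (adjusted p = 0.0029). Lrp1, the receptor that clears serpin-protease complexes, differed by -0.21 (adjusted p = 0.26), and Vtn, vitronectin, a binding partner of serpins in the matrix, by -0.19 (adjusted p = 0.47).

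Of the protease inhibitors outside the serpin family, 3 of 13 above the limit were higher, 3 lower and 7 not called (median difference -0.15), against 14.9% higher and 11.8% lower of all genes. The lower count was 5 without regular-muscle replicate 4 and 1 with arrays centred, and the higher count was 1 with probe sets averaged. Cst6, a secreted cystatin, fell by 0.53 (adjusted p = 0.0027) and Timp4, an inhibitor of matrix metalloproteinases, rose by 0.49 (adjusted p = 0.0099). Cystatin C, Cst3, fell by 0.37 (adjusted p = 0.0085) and Pebp1, a phosphatidylethanolamine-binding protein with weak protease inhibition, by 0.35 (adjusted p = 0.017). With arrays centred on their medians, Cst3 (adjusted p = 0.084) and Pebp1 (adjusted p = 0.072) were not called, nor was Pebp1 without the trend (adjusted p = 0.051).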

How the data were processed

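Muscle RNA of 12 mice was measured on Affymetrix arrays. Labelling began with 5 µg of RNA per array, per the labels' protocols. The authors deposited an intensity on a linear scale for each probe set. The submitters' processing notes name MAS5 for this step, with version, settings and detection calls not given in the sources read. In the deposited table the mean of each array, leaving out 2% of its values at either end, was 800.0. Arrays have no read depth, and their number limits the precision. The labels give different mice for the 12 arrays.

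Of 45101 probe sets, 34958 had 1 gene in the platform annotation, 932 several and 9211 none. All 40 serpins were found in a RefSeq gene table (GRCm38.p6) by gene identifier. Intensities were taken to log2 without offset, with 1 probe set per gene, and genes with a mean below the median of gene means (8.56) were left out, which left 9097 of 18194. Groups were compared with limma (3.58.1, R 4.3.3), lmFit and eBayes with trend, two-sided, with Benjamini-Hochberg adjustment over all genes fitted, called at 0.05. Dim serpins come from the same fit without the limit. Intervals are 95% from the moderated fit. Figures were drawn with matplotlib 3.10.9.

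The members, lists and tests were chosen with earlier results of these data known, among them the rise of Serpinb1a. The rule for named genes takes every serpin, and from each list up to 4 called genes with the smallest adjusted p, plus Plat, Plau, Col1a1, Vtn and Lrp1. Outside it lie C1ra, Klkb1, Masp1, Masp2, Elane, Ctsg, Gzmb, Plxdc1 and Plxdc2, targets or partners of called serpins, and cell markers named singly. These were chosen after their values were seen. The fit was tested on simulated data with known changes. It recovered 53% of the 1.5-fold and 87% of the 2-fold changes. Of its 155 calls 15 were false, a higher share than the 0.05 aimed at. The simulation held the 9097 genes above the dim limit, with independent normal noise, and 200 of them were changed. In the data 26.7% of these genes were called, so its rates need not hold there or for dim serpins. Alternatives were quantile normalization, centring on array medians, an offset of 64, no dim limit, the mean of all probe sets, no trend, and leaving out each array.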

Additional observations from a re-analysis of the deposited data

Results flagged for a closer look

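Some arrays stood far from the other 5 of their group, by a gap to the nearest array that took more than 0.625 of the range of the group (Dixon's test for 6 values). Chance alone gives this in about 1 of 20 groups, and 9 of 112 combinations of gene and group examined had it. No called serpin was among them. Serpina10 had a log2 intensity of 8.88 on mini-muscle replicate 2, the highest of its group, against 7.93 to 8.19 on the other arrays. Serpina12 had a log2 intensity of 7.30 on regular-muscle replicate 4, the highest of its group, against 3.16 to 4.09 on the other arrays. Serpina4-ps1 had a log2 intensity of 4.74 on mini-muscle replicate 3, the lowest of its group, against 7.22 to 8.70 on the other arrays. Serpinb5 had a log2 intensity of 3.79 on regular-muscle replicate 3, the lowest of its group, against 7.34 to 8.29 on the other arrays. Serpinb8 had a log2 intensity of 5.79 on regular-muscle replicate 4, the lowest of its group, against 8.09 to 8.54 on the other arrays. Serpinb9b had a log2 intensity of 5.63 on mini-muscle replicate 5, the lowest of its group, against 7.72 to 8.36 on the other arrays. Serpinh1 had a log2 intensity of 11.37 on regular-muscle replicate 1, the highest of its group, against 10.90 to 11.04 on the other arrays. Serpini1 had a log2 intensity of 5.35 on regular-muscle replicate 6, the lowest of its group, against 7.84 to 8.42 on the other arrays. Outside the family, Pebp1 had a log2 intensity of 14.75 on regular-muscle replicate 2, the lowest of its group, against 15.01 to 15.15 on the other arrays. For 6 of the 8 serpins the value lies below the dim limit.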

How the results depend on the processing

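The 5 called serpins kept direction and call in all 89 of the 89 combinations of gene and alternative run, with 2 higher and 2 lower above the dim limit throughout and Serpina3n as the third higher gene without it. The count of all genes called was 2426, and it was 1521 when probe sets of a gene were averaged, 1641 with arrays centred on their medians and 2153 to 2396 with an array left out. The sign of 14 serpins that were not called changed under some alternative. With an offset of 64 the difference was -0.069 for Serpina9 and -0.13 for Serpinb5. With probe sets averaged it was -0.12 for Serpinb5, -0.34 for Serpinb9c and 0.21 for Serpini1. With 1 array left out the differences ran from -0.21 to 0.18 for Serpina11, -0.56 to 0.23 for Serpina1f, -0.23 to 0.80 for Serpina3a, -0.74 to 0.49 for Serpina3i, -0.20 to 0.71 for Serpina5, -0.53 to 0.54 for Serpina9, -0.64 to 0.26 for Serpinb5, -0.027 to 0.23 for Serpinb6b, -0.26 to 0.56 for Serpinb6e, -0.32 to 0.47 for Serpinb9b, -0.079 to 0.29 for Serpinc1, -0.046 to 0.10 for Serpinh1 and -0.72 to 0.22 for Serpini1. The cause was not tested. No paired analysis was possible because the replicate numbers were given in accession order and only name the arrays. Signal over background limits the family, since 32 of 40 genes lie below the dim limit, where arrays of one group spread widely.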

Other observations

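In sign, 26 of the 40 serpin differences were positive and 14 negative, with a median of 0.17, against 0.02 over all genes. Most of these differences belong to dim genes that were not called, and the share of positive signs over all genes was not computed.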
